A study of Homo sapiens with 4 samples.

Results

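Ribosome footprints of the mitochondrially encoded subunits of cytochrome c oxidase (MT-CO1, MT-CO2 and MT-CO3), cytochrome b (MT-CYB) and ATP synthase (MT-ATP6 and MT-ATP8) were examined in 5-FU-resistant HCT-8 cells. The 6 genes were found by their symbols among the 20323 rows of each deposited count file, with 1 row for each gene. All 6 passed the filter on low counts. HCT-8 is an established human colorectal adenocarcinoma line, here in a form resistant to 5-fluorouracil (5-FU), an analogue of uracil that disturbs thymidylate and RNA synthesis. Cells carried either a plasmid as negative control (NC) or one that overexpressed METTL14 (OE), the partner of METTL3 in the enzyme that places N6-methyladenosine on messages. There were 2 libraries in each group, from experiments that the submitters call independent, and all 4 came from cells given cycloheximide at 100 ug/mL. How long the cells were transfected and what share of them took up the plasmid is not stated in the labels.

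The mitochondrial genome encodes core subunits of 4 of the 5 complexes of oxidative phosphorylation, and the rest of each complex is encoded in the nucleus and imported. Its messages are translated by mitochondrial ribosomes inside the organelle, and the new proteins are inserted into the inner membrane during synthesis. Cycloheximide arrests cytosolic ribosomes and does not act on mitochondrial ribosomes, so the agent that held nuclear-encoded messages in place is not known to hold these. MT-CO1 and MT-CO2 carry the copper and haem centres of cytochrome c oxidase, the last enzyme of the respiratory chain, and MT-CO3 completes its core. MT-CYB carries the haems of the cytochrome bc1 complex, and MT-ATP6 and MT-ATP8 belong to the membrane part of ATP synthase, where MT-ATP6 forms the path of the protons. RefSeq's gene table of the build GRCh38.p14 was used for order and overlap only. In it MT-CO2, MT-ATP8, MT-ATP6 and MT-CO3 follow one another, and MT-ATP8 overlaps the start of MT-ATP6.

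The deposited counts summed to between 18707758 and 24392875 in 3 libraries and to 7742274 in OE replicate 1. Levels are given as CPM, footprint counts relative to the library total after TMM scaling. METTL14 (ENSG00000145388), the check of the labels, had 44.6 and 47.6 CPM in the NC pair, and 448 and 91.2 CPM in OE replicates 1 and 2. The NC libraries correlated at 0.983 over the log2 CPM of the 12560 genes tested and the OE libraries at 0.863. In OE replicate 1 the log2 difference from the NC mean ran with level. When the tested genes were ranked by CPM in NC and cut into 10 bins, its median was 1.17 in the lowest bin and -1.08 in the highest, which held all 6 members. In OE replicate 2 the median of every bin lay between -0.09 and 0.07. Of 12 markers of colorectal epithelium, 11 were above 1 CPM in every library, KRT20 being the exception. The 12 summed to 22410 and 21770 CPM in NC, 6474 CPM in OE replicate 1 but 25040 CPM in OE replicate 2. Markers of fibroblasts, endothelium, neurons and liver summed to at most 5.23 CPM for any of these cell types in any library, and among blood markers, which summed to between 28.7 and 75.5 CPM, CD68 alone was above 1 CPM. Message abundance and ribosome occupancy both enter a footprint count, and in a bulk library fewer mitochondrial messages per cell and fewer ribosomes per message cannot be told apart.

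MT-CO1 (ENSG00000198804) was the member whose footprints lay below the NC range in both OE libraries. Its level was 3332 CPM in NC replicate 1 and 3831 CPM in NC replicate 2, against 2135 and 773 CPM in OE replicates 1 and 2. The groups did not overlap, at 3581 ± 353 against 1454 ± 963 CPM (SD, n = 2 each), and OE replicate 2 lay well below OE replicate 1. Over all tested genes 20.4% were lower in both OE libraries and 19.9% were higher in both. MT-CO2 (ENSG00000198712) had 669 and 662 CPM in NC, 677 CPM in OE replicate 1 but 113 CPM in OE replicate 2. The NC pair and OE replicate 1 of MT-CO2 were thus close together, and OE replicate 2 stood apart below them. MT-CO3 (ENSG00000198938) had 788 and 640 CPM in NC, 916 CPM in OE replicate 1 but 265 CPM in OE replicate 2. For this subunit OE replicate 1 was the highest of the 4 libraries and OE replicate 2 the lowest.

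MT-CYB (ENSG00000198727) had 893 and 787 CPM in NC, 1032 CPM in OE replicate 1 but 244 CPM in OE replicate 2. MT-ATP6 (ENSG00000198899) had 318 and 303 CPM in NC, 360 CPM in OE replicate 1 but 111 CPM in OE replicate 2. Both messages had the order seen for MT-CO3, with the NC libraries between the OE libraries. MT-ATP8 (ENSG00000228253) had the opposite order, with OE replicate 1 lowest and OE replicate 2 highest. Its level was 249 CPM in NC replicate 1, 574 CPM in NC replicate 2, 66.7 CPM in OE replicate 1 but 1034 CPM in OE replicate 2. Exact Poisson 95% intervals for MT-ATP8, which cover counting error only, were 242 to 257, 562 to 585, 61.9 to 71.9 and 1021 to 1047 CPM in the same order, so the 4 libraries differed by more than counting error. The log2 difference between the OE libraries was 3.95 for MT-ATP8, a gap wider than that of 99.2% of the genes tested, and the difference of 1.20 between the NC libraries was wider than that of 97.8% of them.

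**Figure D1:**
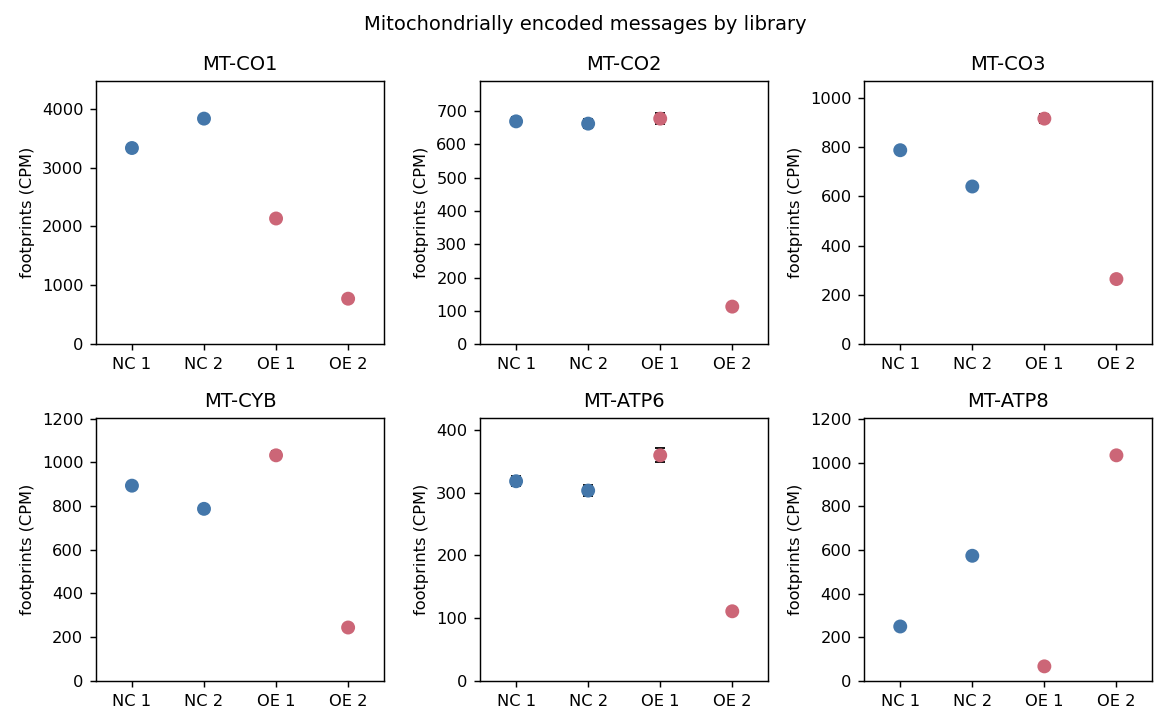
Footprints of the 6 messages in each library, in CPM on linear axes that start at 0, with NC libraries in blue, OE libraries in red and exact Poisson 95% intervals as bars, mostly smaller than the points. MT-CO1 is lower in both OE libraries, 4 messages have OE replicate 2 alone far below the rest, and MT-ATP8 is highest in OE replicate 2 at 1034 CPM.

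The comparison of OE with NC asks which messages gained or lost footprints when METTL14 was overexpressed. After Benjamini-Hochberg adjustment of edgeR's quasi-likelihood test 0 of the 6 members passed, and 0 of the 12560 genes tested (0%) passed; 691 genes (5.5%) had an unadjusted p below 0.05, none of them a member. METTL14 itself did not pass either, at a log2 fold change of 2.55 (SE 0.81, edgeR adjusted p = 0.734). The fit thus missed the overexpressed gene, and its 0 calls do not show that the members were unchanged. The DESeq2 Wald test called 25 genes (0.199%) and edgeR's likelihood ratio test 29 (0.231%), again with 0 members. A quasi-likelihood fit with the replicate number as a block called 0.191% of genes, and fits without NC replicate 1 or NC replicate 2 called 0.0844% and 0.0534%, each with 0 members. MT-CO1 had a log2 fold change of -1.30 (SE 0.77, edgeR adjusted p = 0.734) and MT-CO2 one of -0.75 (SE 0.89, edgeR adjusted p = 0.823). MT-CO3, MT-CYB and MT-ATP6 had -0.27, -0.40 and -0.40 with standard errors from 0.64 to 0.79, values that turned to 0.21, 0.10 and 0.07 when scaled by library totals alone. That scaling moved the median of all genes from 0.09 to 0.40, so the 3 stayed below it. MT-ATP8 had 0.42 (SE 1.24, edgeR adjusted p = 0.931). The median of the 6 was -0.40.

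The values depended on which OE library was used. In OE replicate 2 alone, MT-CO2 lay at -2.56 on the log2 scale from the NC mean, MT-CO1 at -2.21, MT-CYB at -1.78, MT-ATP6 at -1.48 and MT-CO3 at -1.42, while MT-ATP8 lay at 1.45. For these 5 messages between 0.573% and 3.41% of tested genes had a lower difference in that library, and for MT-ATP8 98.9% did. In OE replicate 1 MT-CO1 lay at -0.74 and MT-ATP8 at -2.50, and the other 4 lay between 0.02 and 0.37. Those 4 were above 93.2% to 97.1% of the 1256 genes in the bin with the highest CPM, most of which were lower in OE replicate 1. MT-CO1 was above 72% of the genes in that bin and MT-ATP8 above 0.08%. Without OE replicate 1, edgeR's quasi-likelihood test called all 6 members, 5 lower and MT-ATP8 higher, with 34.1% of all genes called. Without OE replicate 2 it called 2 members as lower, MT-CO1 at -0.79 (adjusted p = 7.86e-06) and MT-ATP8 at -2.66 (adjusted p = 2.45e-10), with 60.9% of all genes called. Both of these fits take their spread from the NC pair and assume that the lone OE library varies like it. MT-ATP8 was called in opposite directions in them.

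The counts of MT-ATP8 and MT-ATP6 are estimates that are tied to each other. MT-ATP6 and MT-ATP8 are the only members whose deposited counts hold fractions, and in all 4 libraries the fractions of the pair add up to a whole number within 0.01. The summed counts were 11025 and 14960 in NC, and 4479 and 25323 in OE replicates 1 and 2. MT-ATP8 was given 43.9% and 65.4% of the sum in NC, 15.7% in OE replicate 1 but 90.3% in OE replicate 2. The sum itself was 568 and 877 CPM in NC, 426 CPM in OE replicate 1 but 1145 CPM in OE replicate 2, so the order of the libraries seen for MT-ATP8 was also that of the sum. Counted as 1 row, the pair had a log2 fold change of 0.12 (SE 0.67, edgeR adjusted p = 0.964). The share of footprints that fall in the overlap was not measured here, since the files hold no positions.

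**Figure D2:**
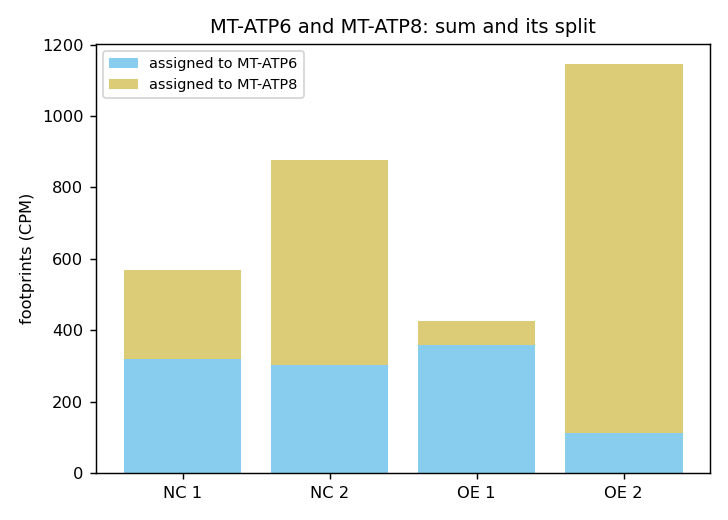
Summed footprints of MT-ATP6 and MT-ATP8 in each library, in CPM, with the part assigned to MT-ATP6 in blue and to MT-ATP8 in yellow. The sum is highest in OE replicate 2 at 1145 CPM, and the part given to MT-ATP8 ranges from 15.7% to 90.3%.

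A measure that does not depend on scaling between libraries is the ratio of a member to other messages of the same genome, which was added after the values were seen. The 7 mitochondrially encoded subunits of complex I, NADH dehydrogenase, summed to 3189 and 2985 CPM in NC, 5770 CPM in OE replicate 1 but 1284 CPM in OE replicate 2. Like MT-CO3, MT-CYB and MT-ATP6, each of the 7 was highest or level with the highest NC library in OE replicate 1 and lowest in OE replicate 2; 0 of them passed edgeR's quasi-likelihood test, and their median log2 fold change was 0.12. The count of MT-CO1 over the complex I sum was 1.05 and 1.28 in NC, and 0.370 and 0.602 in OE. For MT-CO2 the ratio was 0.210 and 0.222 in NC, and 0.117 and 0.0878 in OE. Against the complex I messages the OE replicates of MT-CO2 no longer stood far apart, with a log2 gap of 0.42 between them in place of 2.58 in CPM. For MT-CYB the ratio was 0.280 and 0.264 in NC, and 0.179 and 0.190 in OE, with equal gaps of 0.09 within each pair of replicates.

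MT-ATP6 had ratios of 0.0998 and 0.102 in NC, and 0.0623 and 0.0864 in OE. MT-CO3 had 0.247 and 0.215 in NC, and 0.159 and 0.206 in OE, the narrowest separation. In this measure 5 of the 6 members had both OE values below both NC values. Of all tested genes divided by the same sums, 2.47% were lower in both and 17.3% were higher in both. From the NC mean, the same division put the median of all genes at -0.88 in OE replicate 1 but 1.26 in OE replicate 2. With these opposed shifts few genes outside the mitochondrial genome could be lower in both. The 2.47% therefore gives no measure of how unusual the 5 members are. The mean log2 difference was -1.30 for MT-CO1, -1.09 for MT-CO2, -0.56 for MT-CYB, -0.46 for MT-ATP6 and -0.35 for MT-CO3. An exact permutation test over the 4 libraries, two-sided, gave p = 0.333 for each of the 5, the smallest value that 2 against 2 can give, and 0.4 after Benjamini-Hochberg adjustment over the 6 members. MT-ATP8 overlapped, at 0.0782 and 0.192 in NC and 0.0116 and 0.805 in OE. In an edgeR quasi-likelihood fit with the complex I sum as the only scaling, 0 members passed and 14 of all genes (0.111%) did; that scaling moved the median log2 fold change of all genes to 0.63.

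**Figure D3:**
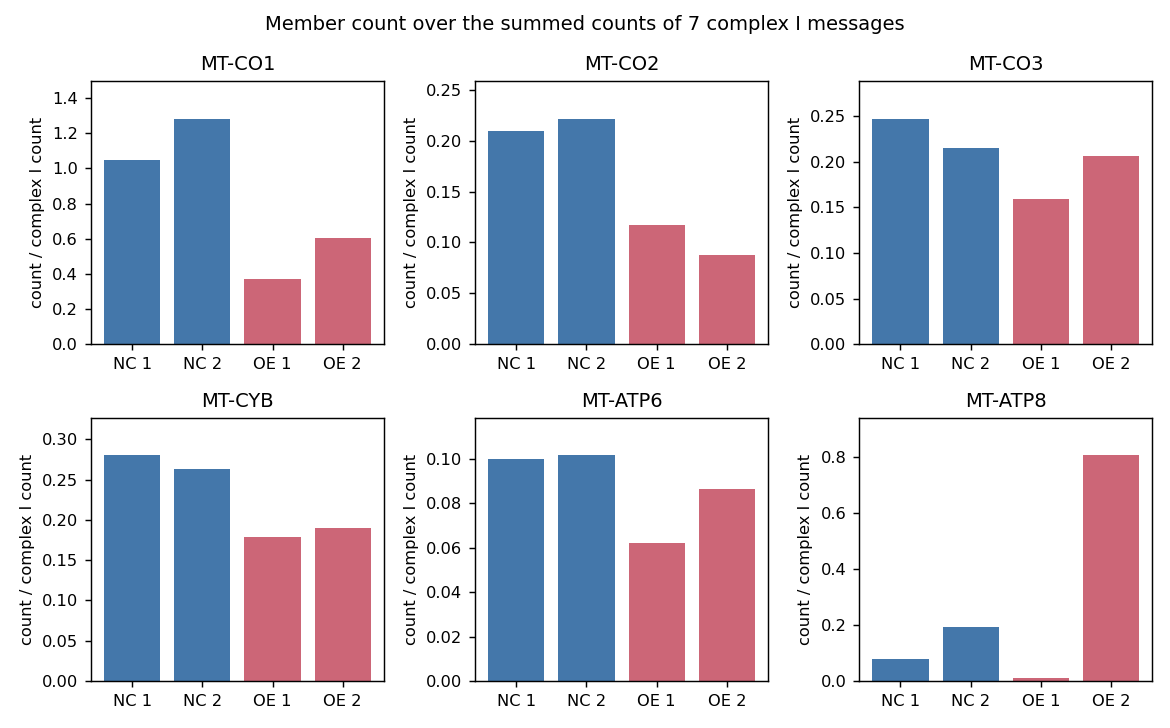
Count of each member divided by the summed counts of the 7 mitochondrial complex I messages in the same library, as bars from 0, with NC in blue and OE in red. For 5 members both OE bars are below both NC bars, as for MT-CO1 (1.05 and 1.28 against 0.370 and 0.602), and MT-ATP8 has no common order.

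The separation differed in extent when parts of the complex I sum were the denominators. When each member was divided by MT-ND2, by MT-ND3, by MT-ND4 with MT-ND4L or by MT-ND5 with MT-ND6, MT-CO1 and MT-CO2 were lower in both OE libraries with all 4. Their mean log2 differences ran from -1.34 to -1.02 for MT-CO1 and from -1.13 to -0.81 for MT-CO2. MT-CYB was lower in both OE libraries with 3 of the 4, MT-ATP6 with 2 and MT-CO3 with 1. Since the 4 denominators are parts of the same sum, they are not separate checks. The share of all genes lower in both OE libraries was not computed for them. The ratio of MT-CO1 to MT-ND2, which precedes it on the genome, was 6.76 and 9.20 in NC, and 3.06 and 4.57 in OE.

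The share of all mitochondrial messages held by the members also needs no scaling between libraries. Together the 6 made up 66.2% (exact binomial 95% interval 66.0 to 66.4) and 69.5% (69.3 to 69.7) of the counts on the 13 mitochondrial messages in NC. OE replicate 1 had 47.3% (47.0 to 47.6), while OE replicate 2 had 66.4% (66.1 to 66.7), intervals that cover counting error only. OE replicate 2 lay between the NC libraries, and MT-ATP8 held 27.0% of the mitochondrial counts there, against 0.609% in OE replicate 1 and 2.64% and 5.86% in NC. With MT-ATP8 left out of both sums the share was 65.3% and 67.6% in NC, and 47.0% and 54.0% in OE. MT-CO1 alone held 36.3% and 41.6% of those 12 messages in NC, and 19.6% and 27.7% in OE. MT-CO2 held 7.28% and 7.19% in NC, and 6.22% and 4.04% in OE. The shares of MT-CO3, MT-CYB and MT-ATP6 overlapped between the groups. MT-CO3, for one, held 8.57% and 6.95% in NC, and 8.41% and 9.48% in OE. Against the whole library, the 6 members held 0.555% and 0.620% of all counts in NC, 0.704% in OE replicate 1 and 0.230% in OE replicate 2. Their summed level, at 6523 ± 388 CPM with the control plasmid, was 3862 ± 1872 CPM with the METTL14 plasmid (SD, n = 2 each). That log2 ratio of -0.76 became -1.36 when OE replicate 1 was left out and -0.33 when OE replicate 2 was. Much of the summed level was MT-CO1, with means of 3581 CPM in NC and 1454 CPM in OE. Without MT-ATP8 the sum was 6112 CPM in NC and 3312 CPM in OE.

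Nuclear-encoded subunits of the same 3 complexes had, by their medians, the reverse order of the OE libraries. For cytochrome c oxidase 12 of 16 listed subunits were tested, with a median log2 difference from the NC mean that was -1.20 for OE replicate 1 but 0.16 for OE replicate 2. The 9 subunits of the bc1 complex had -1.06 and 0.06, and the 18 of ATP synthase had -1.21 and 0.23. The 6 mitochondrial members had medians of 0.12 and -1.63 in the same libraries, and all tested genes 0.02 and 0.00. The OE library in which the nuclear subunits lay low was therefore the one in which most mitochondrial members did not. With scaling by library totals alone the nuclear medians in OE replicate 1 were -0.61, -0.47 and -0.61, against 0.62 for all genes. The median of all genes in the bin with the highest CPM was -1.08 in OE replicate 1, close to the nuclear medians, and the part of level in them was not tested. The median log2 fold changes of the 3 nuclear groups were -0.38, -0.46 and -0.30, against 0.09 for all genes, and became 0.54, 0.46 and 0.58 with the complex I sum as the scaling, against 0.63 for all genes.

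**Figure D4:**
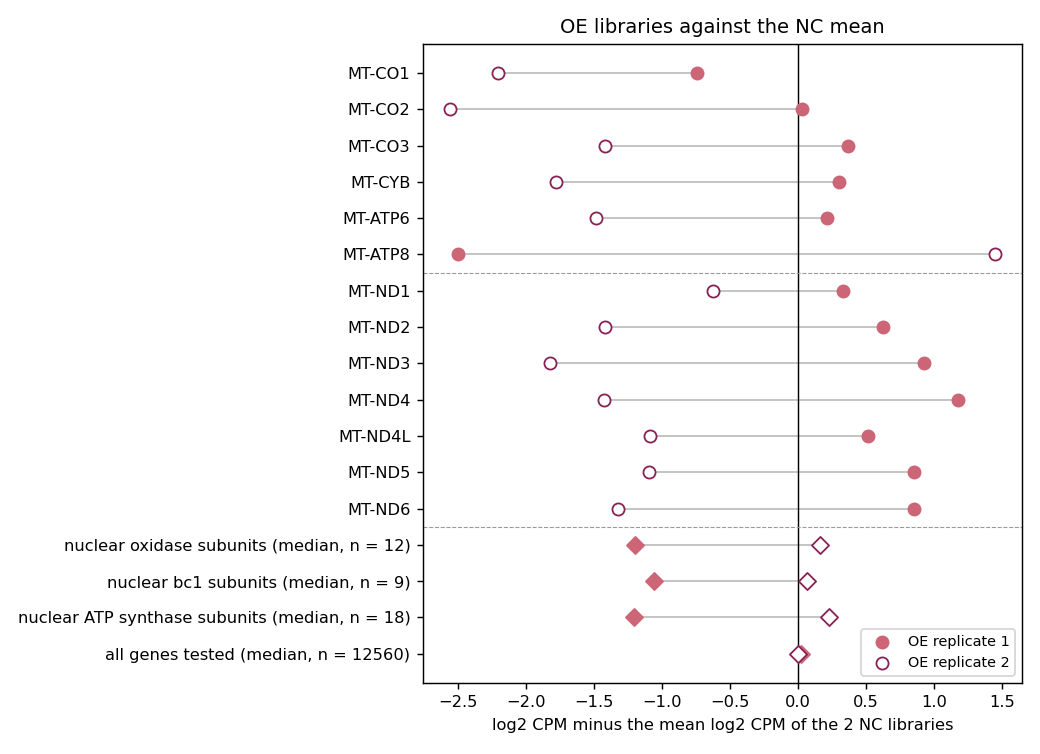
Log2 CPM in each OE library minus the mean of the 2 NC libraries, for the 6 members (top), the 7 mitochondrial complex I messages (middle) and medians over nuclear subunits and over all 12560 tested genes (bottom). Filled symbols are OE replicate 1 and open symbols OE replicate 2; MT-ATP8 (-2.50 and 1.45) and the nuclear medians have the reverse order of the other mitochondrial messages.

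No nuclear subunit passed edgeR's quasi-likelihood test (0 of 39 tested). Of the 39, 1 had an unadjusted p below 0.05, beside 5.5% of all genes. Lower in both OE libraries were 4 of 12 oxidase subunits, 3 of 9 bc1 subunits and 4 of 18 ATP synthase subunits, and 0 were higher in both, beside 20.4% and 19.9% of all genes. Of the oxidase subunits, COX7C had 330 and 335 CPM in the NC pair and 134 and 255 CPM in the OE pair, a log2 fold change of -0.78 (SE 0.48). COX6A1, COX8A and COX5B, which surround the mitochondrial core, had -1.07, -0.59 and -0.55. Of the bc1 complex UQCR10, UQCRQ, UQCRC1 and UQCRB had -0.66, -0.50, -0.71 and -0.46. UQCRQ differed from the other 3 named in having the lower value in OE replicate 2, at 368 and 433 CPM in the NC pair and 359 and 207 CPM in the OE pair. ATP5ME, a small membrane subunit of ATP synthase, had the smallest p of the 3 groups, with a log2 fold change of -1.04 (SE 0.37, edgeR adjusted p = 0.734). It had 286 and 296 CPM in the NC pair and 151 and 132 CPM in the OE pair, so its OE replicates were close together. ATP5MJ, ATP5MF and ATP5MC1 had -0.74, -0.68 and -0.54.

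Factors that assemble the 3 complexes were measured for all 38 genes listed, and 0 passed edgeR's quasi-likelihood test. An unadjusted p below 0.05 was seen for 1 of the 38, beside 5.5% of all genes. Of the 38 factors, 11 lay below NC in both OE libraries and 2 above, beside 20.4% and 19.9% of all genes tested. The median log2 fold change was -0.19 against 0.09 for all genes, and 0.09 against 0.40 when scaled by library totals alone. Differences in OE replicate 1 ran with level, and the part of level in this median was not tested. PET117, which helps to assemble the oxidase, had 11.2 and 16.2 CPM in the NC pair and 5.14 and 5.38 CPM in the OE pair, a log2 fold change of -1.38 (SE 0.39, edgeR adjusted p = 0.734). COA5 and COA8, also of oxidase assembly, had -0.62 and 0.98, and SMIM4, of bc1 assembly, had -0.61.

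Among 25 genes for stability, processing and translational activation of mitochondrial messages, 0 passed edgeR's quasi-likelihood test (1 at an unadjusted p below 0.05), 8 lay below NC in both OE libraries and 1 above; of all genes tested 20.4% lay below, 19.9% above and 5.5% had an unadjusted p below 0.05. The median log2 fold change was -0.22 against 0.09 for all genes, and 0.04 against 0.40 when scaled by library totals alone. FASTK, a mitochondrial RNA-binding protein, was the gene above NC, with 14.3 and 12.1 CPM in NC, 34.1 and 24.1 CPM in OE and a log2 fold change of 1.13 (SE 0.33). PNPT1, a nuclease that degrades mitochondrial RNA, had -1.11 (SE 0.44). SLIRP, which with LRPPRC keeps mitochondrial messages stable, had -0.84 (SE 0.49), at 869 and 712 CPM in the NC pair and 365 and 520 CPM in the OE pair. TACO1, which activates translation of MT-CO1, had 50.3 and 46.9 CPM in the NC pair and 22.1 and 42.1 CPM in the OE pair, a log2 fold change of -0.60 (SE 0.41). The NC means of FASTK, PNPT1, SLIRP and TACO1 were 13.2, 127, 791 and 48.6 CPM. Since differences in OE replicate 1 ran with level, these values hold a part of level that was not tested.

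For transcription and copying of the mitochondrial genome 14 of 15 genes were tested, of which 0 passed edgeR's quasi-likelihood test. An unadjusted p below 0.05 was seen for 1, beside 5.5% of all genes. Of the 14, 4 lay above NC in both OE libraries and 2 below (all genes 19.9% and 20.4%). Their median log2 fold change was 0.36 against 0.09 for all genes, and 0.74 against 0.40 when scaled by library totals alone. MTERF3, a repressor of mitochondrial transcription, had 9.48 and 9.67 CPM in the NC pair and 15.5 and 26.9 CPM in the OE pair, a log2 fold change of 1.15 (SE 0.39). POLG2, a subunit of the DNA polymerase, and MGME1, a nuclease that acts on mitochondrial DNA, had 0.77 and 0.74. POLRMT, the RNA polymerase that makes all of these messages, had 75.1 and 73.8 CPM in the NC pair and 30.7 and 55.9 CPM in the OE pair, a log2 fold change of -0.78 (SE 0.40). The NC means of MTERF3, POLG2, MGME1 and POLRMT were 9.57, 11.45, 18.8 and 74.5 CPM. Differences in OE replicate 1 ran with level, and the part of level in this list and its median was not tested. Of 14 mitochondrial translation factors 0 passed edgeR's quasi-likelihood test (0 at an unadjusted p below 0.05). In both OE libraries 4 of them lay above and 2 below NC (all genes 19.9% and 20.4%). Their median was -0.18 against 0.09 for all genes, and 0.09 against 0.40 when scaled by library totals alone. The ribosome recycling factor MRRF had 24 and 27.9 CPM in the NC pair and 46.9 and 39.6 CPM in the OE pair, a log2 fold change of 0.74 (SE 0.30). The release factors MTRF1 and MTRF1L had 0.77 and 0.49, and the elongation factor GFM1 had -0.96. MRRF and GFM1 had NC means of 25.95 and 127 CPM, and the part of level was not tested here either.

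Genes outside the mitochondrial genome with the most similar pattern were ranked by the distance between centred log2 CPM profiles over the 4 libraries, among 8967 genes with a mean of at least 10 CPM. Nearest to the mean profile of the 6 members were SNRNP27, PRPF6, TPX2, ASPH and IK, at distances from 0.0790 to 0.0970 log2 units. That mean joins MT-ATP8 to messages with the opposite order, so the profile was also split, after the values were seen. Nearest to the mean of the 5 without MT-ATP8 were YLPM1, SVIL, SPTAN1, EIF5B and RAB5C, at 0.0894 to 0.221; SPTAN1, for one, had 586 and 568 CPM in the NC pair and 612 and 171 CPM in the OE pair. Nearest to MT-ATP8 were ALPP, RNF223, H3C1, H4C3 and PPA1, at 0.981 to 1.21, none as close. H4C3, a replication-dependent histone gene, had 535 and 463 CPM in NC, 96.9 CPM in OE replicate 1 but 905 CPM in OE replicate 2. H3C1, H4C3 and ALPP have near-identical relatives among which reads could have been divided, so their counts are uncertain.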

How the data were processed

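The authors deposited, for each of 4 ribosome profiling libraries, estimated counts per Ensembl gene, per the file headers. From 13.8% to 14.7% of values hold fractions, so counts were rounded for tests. Per the submitters' processing notes, hg18 was the build and RSEM, HISAT2, StringTie, Bowtie2 and fastp were among the tools. Versions, settings, strand, annotation and rRNA removal were not stated there. RefSeq coordinates served only for gene order and overlap, and no lengths were used. Ratios, shares and ranks between genes are therefore of counts not corrected for length. Groups and replicate numbers came from the titles. In R 4.3.3, filterByExpr (count 10, total 15, proportion 0.7) set the genes tested and TMM the scaling. OE was compared with NC by edgeR 4.0.16's quasi-likelihood test over all genes (Benjamini-Hochberg, threshold 0.05; 2 residual and 3.09 prior degrees of freedom). DESeq2 1.42.0 was an alternative. Log2 CPM used a prior count of 2. The fit was also run on simulated counts that gave all genes and libraries the same dispersion, and the outcome is not given here. That setting differs from these data, in which the OE replicates lay further apart than the NC replicates. Replicates differed by a chi-square per degree of freedom of 13.0 (NC) and 330.1 (OE), so no library was a repeat. Of each list, up to 4 genes with the smallest p were named, and of mitochondrial genes all members. The members and lists were chosen with earlier results of these data known, and the ratios within the mitochondrial genome after seeing these values.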

Additional observations from a re-analysis of the deposited data

How the results depend on the processing

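With 2 libraries a group, even a large difference could fail to pass. METTL14, the overexpressed gene, had a log2 fold change of 2.55 and did not pass in the reported fit. Counts of genes called, 0 in the reported fit, were 25 by the DESeq2 Wald test, 29 by edgeR's likelihood ratio test, 24 with the replicate block and 14 with the complex I sum as the only scaling. Leaving out 1 library at a time gave 7 to 7969 genes and 0 to 6 members called, the high values each coming from a fit with 1 OE library. Library totals as the only scaling turned MT-CO3, MT-CYB and MT-ATP6 to log2 fold changes of 0.21, 0.10 and 0.074. MT-ATP6 was 0.12 when summed with MT-ATP8. Without OE replicate 1, MT-CO3, MT-CYB, MT-ATP6 and MT-ATP8 were -1.43, -1.78, -1.48 and 1.33. Without OE replicate 2, MT-CO3, MT-CYB and MT-ATP6 were 0.32, 0.26 and 0.17 and MT-ATP8 was -2.66; MT-ATP8 was -0.058 without NC replicate 1. MT-CO1 and MT-CO2 were negative in all 14 fits, from -2.21 to -0.79 and from -2.56 to -0.02. The cause of these changes was not tested, and the fits that left out a library also had fewer samples. The numbers of the libraries did not pair them by the data, with a correlation of -0.0974 between the deviations of NC replicate 1 and OE replicate 1; the replicate block turned MT-ATP8 to -0.52 and called 0 members. The log2 ratio of the summed level was negative under 4 other scalings, and the difference in the share of mitochondrial counts, -11.0 percentage points, ran from -20.5 to -1.44 as libraries were left out. Adding rRNA or nuclear pseudogene copies to the shares was not run, as no such rows were used here, and levels per codon were not computed.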

Other observations

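Fractions were found in 6 of the 13 mitochondrial messages, always in neighbouring pairs whose sums were whole in every library within 0.01 (12 of 12 sums). MT-ND5 and MT-ND6, which lie on opposite strands of the mitochondrial genome, were 1 of these pairs, with MT-ND6 given 15.2%, 15.3%, 15.2% and 13.3% of the sum in NC replicates 1 and 2 and OE replicates 1 and 2. In the pair of MT-ND4 and MT-ND4L, MT-ND4L was given 16.9%, 20.5%, 12.7% and 22.4% of the sum in the same libraries. The share of MT-ND4L thus had the same order over the 4 libraries as that of MT-ATP8 in its pair (43.9%, 65.4%, 15.7% and 90.3%), over a narrower range. MT-ND1 had between 26 and 48 counts in a library, while each other mitochondrial message had at least 477.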
